A study of Saccharomyces cerevisiae with 18 samples.

Results

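The outermost genes of the yeast chromosomes were examined, taken as the 10 rows with the highest number in their systematic name on each of the 32 chromosome arms in a table of RNA read counts. In budding yeast the number in a systematic gene name counts outward from the centromere, so the highest numbers lie nearest the telomere. This gave 320 rows of the 5143 in the table. All libraries came from Saccharomyces cerevisiae, and 2 genotypes were compared: the ts (temperature-sensitive) mutant ten1-31 (3 libraries) and WT (3 libraries). The labels give no further strain, allele or marker. Cultures of both genotypes were held overnight at 25 °C, diluted, grown at 34 °C for close to 5 h, and their total RNA was depleted of ribosomal RNA before sequencing. The series also holds 12 ChIP-seq samples, which were not analysed here.

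Ten1 is a subunit of the Cdc13-Stn1-Ten1 complex, which binds the single-stranded end of the telomere, protects it from degradation and takes part in its replication. The regions next to yeast telomeres hold gene families for sugar use, metal uptake, cell adhesion and sulfur metabolism. Transcription near the ends can be held low by silencing proteins, among them Sir2, Sir3 and Sir4, which spread inward from the telomere. By its title, the study concerns the complex and RNA polymerase II, and the question here is which genes and arms next to the telomeres had other transcript levels in ten1-31.

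The rows stood near the chromosome ends but were not always the last genes. By the RefSeq gene table of assembly R64, 155 protein-coding genes lay further out than the outermost row of their arm, between 0 and 13 per arm with a median of 5. The outermost row lay a median of 13.4 kb inward from the outermost RefSeq gene of its arm, and the 10th row a median of 40.0 kb. The YRF1 helicase, ERR and silent mating-cassette genes listed as families of the ends were without a row and are not analysed here. Library totals ranged from 10469608 to 14442999 counts, and the median count of an outermost row was between 644 and 833 per library. TEN1 itself was at 30.1 ± 0.630 CPM in ten1-31 and 8.85 ± 1.57 CPM in WT (SD, n = 3 each; CPM, the count scaled by the TMM-adjusted library size). The a-specific mating genes, 6 of them tested, summed to 974 to 1565 CPM per ten1-31 library and 1381 to 1429 CPM per WT library. The 3 alpha-specific genes tested summed to 71.4 to 72.5 CPM in ten1-31 and 52.3 to 60.5 CPM in WT. They were not alike. STE3, on XIL, was at 10.8 ± 2.56 CPM in ten1-31 and 1.88 ± 0.395 CPM in WT (SD, n = 3 each). SAG1 had means of 48.55 CPM in ten1-31 and 43.35 CPM in WT, and AFB1 of 12.4 and 11.4 CPM.

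A row was called higher or lower where the quasi-likelihood test of edgeR gave a Benjamini-Hochberg adjusted p-value under 0.05 over all 5133 rows tested. Of the 320 outermost rows, 319 could be tested, and PUL3 had too few counts. In ten1-31, 98 were higher and 84 lower, which is 30.7% and 26.3% of them. The background was 24.3% higher and 26.2% lower among all rows tested, and 50.5% called in all (50.0% outside the ends). The median log2 fold change was 0.05, against -0.0038 over all rows tested. The outermost rows thus moved in both directions, with a middle close to that of all genes. For 202 of the outermost rows (63.3%) the 3 libraries of ten1-31 lay wholly apart from the 3 of WT, as they did for 60.5% of all rows tested and 60.4% of those outside the ends. The labels do not say whether the libraries of a genotype came from separate cultures, so the p-values measure the spread between these libraries only.

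Larger changes took a greater share of the rows at the ends. At least a 2-fold change was called for 43 outermost rows, 27 higher and 16 lower, or 13.5% of those tested. Over all rows tested the figures were 4.03% higher, 2.18% lower and 6.21% in either direction, and over the rows outside the ends 3.74%, 1.99% and 5.73%. The median size of the log2 fold change was 0.39 at the ends and 0.28 in the other rows. No test of the difference between the ends and the other rows was run. The counts read from the ends did not differ in total beyond the spread between libraries. They made up 4.62 ± 0.0536% of all counts in ten1-31 and 4.51 ± 0.234% in WT (SD, n = 3 each). A two-sided exact permutation test gave p = 0.5, where 3 against 3 libraries allow no less than 0.1. Without PHO84, the outermost row with the most counts, the shares were 4.55 ± 0.0434% in ten1-31 and 4.21 ± 0.248% in WT, which did not overlap (exact permutation p = 0.1). In counts of pooled cells, fewer cells expressing a gene and less RNA per cell cannot be told apart.

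**Figure D1:**
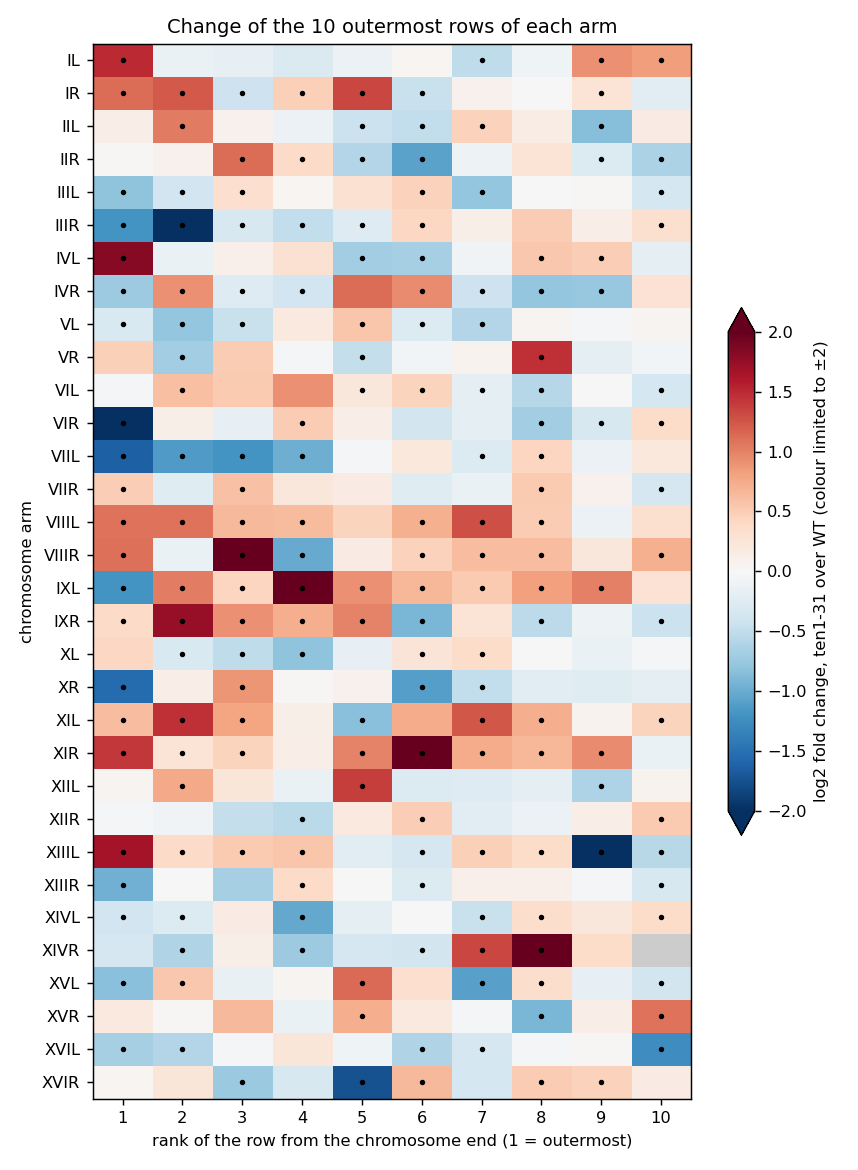
Log2 fold change (ten1-31 over WT) of the 10 outermost rows of each of 32 chromosome arms, with the outermost row at the left. Colour runs from blue (lower in ten1-31) to red (higher) and is limited to 2 in either direction, black dots mark rows called at an adjusted p-value under 0.05, and the grey cell was not tested. Red rows of cells stand out on both arms of chromosomes VIII and XI and on IXL, and IXR mixes both colours.

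Changes of at least 2-fold were most frequent at rank 1. At rank 1, the row nearest the end, 12 of 32 rows were called and changed at least 2-fold (37.5%), with 7 higher and 5 lower. At rank 2 it was 25.0%, and from rank 3 to rank 10 between 6.2% and 12.5% per rank. In the next band inward, ranks 11 to 20, it was 5.1%, and in the bands further in between 3.2% and 7.7%. The 7 that were higher at rank 1 were SEO1 (IL), SWH1 (IR), YDL241W (IVL), DFP4 (VIIIL), FLO5 (VIIIR), FLO10 (XIR) and YML131W (XIIIL). The 5 that were lower were YCR099C (IIIR), IRC7 (VIR), COS12 (VIIL), SOA1 (IXL) and PGU1 (XR). No direction prevailed at rank 1: 10 of the 32 rows were called higher and 12 lower, with a median log2 fold change of 0.03. Rank is not distance, as rank 1 lay between 0.0 and 33.4 kb inward from the outermost RefSeq gene. By this distance, the share changed at least 2-fold was 31.8% of 22 outermost rows within 10 kb. From 10 to 20 kb it was 14.8%, and from 20 to 30 kb 10.6%. From 30 to 40 kb it was 11.4%, and further in 13.5%.

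Level moved with rank. The median level at rank 1 was 22.5 CPM per kb of gene, at rank 10 it was 73.2, and in the rows outside the outermost 10 it was 59.3. With all rows divided into 4 equal classes by CPM per kb, a division chosen after seeing the data, 18.4% of the outermost rows in the lowest class changed at least 2-fold, against 8.8% of the other rows there. The shares were 12.2% against 3.2% and 12.7% against 4.3% in the middle classes, and 6.8% against 6.7% in the highest. In the lowest class, 8 of the 22 rows at rank 1 changed at least 2-fold. Without chromosomes VIII, IX and XI, whose rows stood apart as described below, the share was 30.8% at rank 1, 15.4% at rank 2, 9.0% at ranks 3 to 5, 7.0% at ranks 6 to 10 and 4.0% at ranks 11 to 20.

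**Figure D2:**
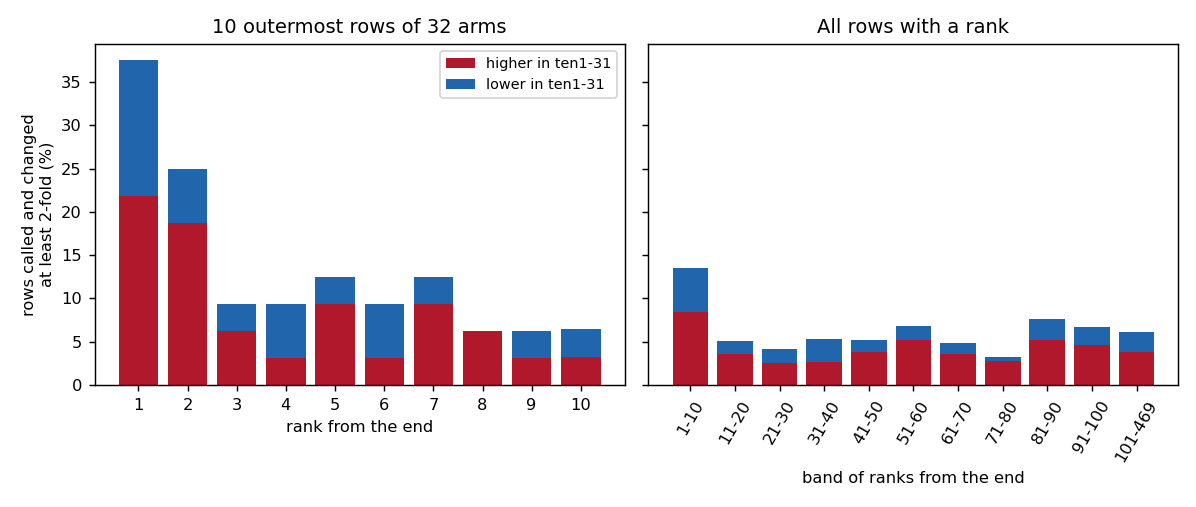
Share of rows called and changed at least 2-fold, in percent, by rank from the chromosome end for the 10 outermost rows (left) and by band of ranks for all rows with a rank (right). Red parts are higher and blue parts lower in ten1-31; each rank holds 31 or 32 rows, and the share falls from 37.5% at rank 1 to 5.1% in the band of ranks 11 to 20.

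An arm was said to lean higher where the outermost rows called higher outnumbered those called lower by at least 4, and to lean lower in the reverse case. The 5 arms that leaned higher were VIIIL, VIIIR, IXL, XIL and XIR. On XIR 8 of the 10 rows were higher and 0 lower, on IXL 8 and 1, on VIIIL 7 and 0, and on VIIIR and XIL 6 and 1 each. Their median log2 fold changes were 0.70, 0.75, 0.64, 0.53 and 0.67 in the same order. The other arm of chromosome IX, IXR, had 5 rows higher and 3 lower. Of the remaining 26 arms, none leaned higher, and the nearest were IR with 5 higher and 2 lower and XIIIL with 6 higher and 3 lower.

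All 5 belonged to chromosomes whose other rows were higher as well. Outside the outermost rows, the median log2 fold change was 0.34 on chromosome VIII, 0.38 on IX and 0.41 on XI, and between -0.09 and 0.02 on the other 13 chromosomes. Among those other rows, 56.7% were called higher on VIII, IX and XI, and 18.8% on the remaining chromosomes. Among the outermost rows it was 40 of 60 (66.7%) and 58 of 259 (22.4%). The libraries were not alike in this. Relative to the mean of the 6 libraries, the other rows of chromosome VIII had median deviations of 0.42, 0.26 and -0.19 on the log2 scale in ten1-31 replicates 1, 2 and 3, and of -0.15, -0.18 and -0.17 in WT. Those of chromosome IX were at 0.14, 0.08 and 0.35 in ten1-31 and -0.20, -0.21 and -0.19 in WT.

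The outermost rows moved with their chromosome in each library. On chromosome VIII, ten1-31 replicate 3 was the lowest of the 3 ten1-31 libraries for 20 of 20 outermost rows. On chromosome IX it was the highest for 20 of 20. On chromosome XI the median deviation of the 20 outermost rows was 0.34, 0.34 and 0.35 in ten1-31 replicates 1, 2 and 3, against -0.39, -0.21 and -0.33 in WT. Whether the number of copies of these chromosomes differed between the cultures was not tested, since read counts of RNA do not give it.

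**Figure D3:**
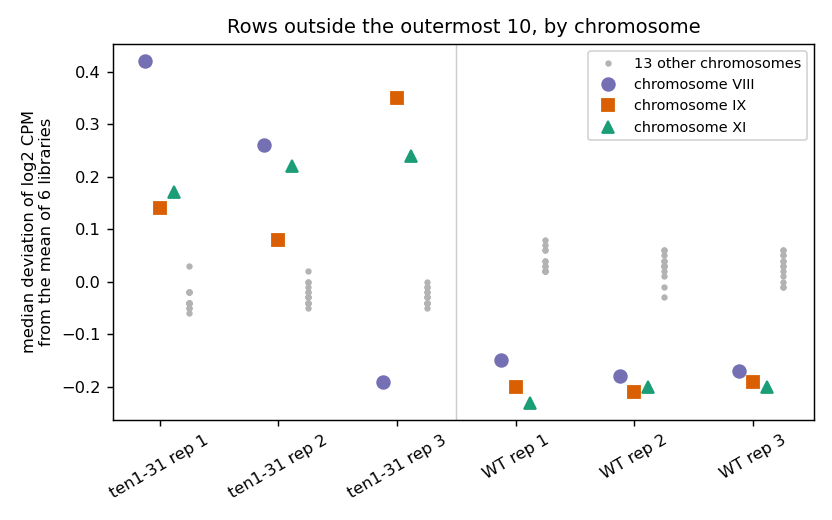
Median deviation of log2 CPM from the mean of the 6 libraries, over the rows outside the outermost 10, for each chromosome in each library (ten1-31 left, WT right). Chromosomes IX and XI are above 0 in the 3 ten1-31 libraries, chromosome VIII is at 0.42 and 0.26 in replicates 1 and 2 and at -0.19 in replicate 3, and the 13 other chromosomes lie close to 0.

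Set against the rest of their own chromosome, the arms differed less. With each library and chromosome centred on the median of its other rows, 98 outermost rows were higher and 81 lower, against a background of 24.4% and 24.1% of all rows. Of the 40 rows called higher on VIII, IX and XI, 27 were also higher after this centring, and 5 rows there were at least 2-fold higher, against 13 before. Over all arms, 20 outermost rows were then at least 2-fold higher and 15 lower (background 3.70% and 2.12%). VIIIL and IXL still leaned higher, with 5 rows higher and 1 lower each, and VIIIR, XIL and XIR no longer did. XIIIL, with 6 rows higher and 3 lower, fell short of a lean but had the highest arm median, 0.44. This centring was chosen after seeing the data.

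**Figure D4:**
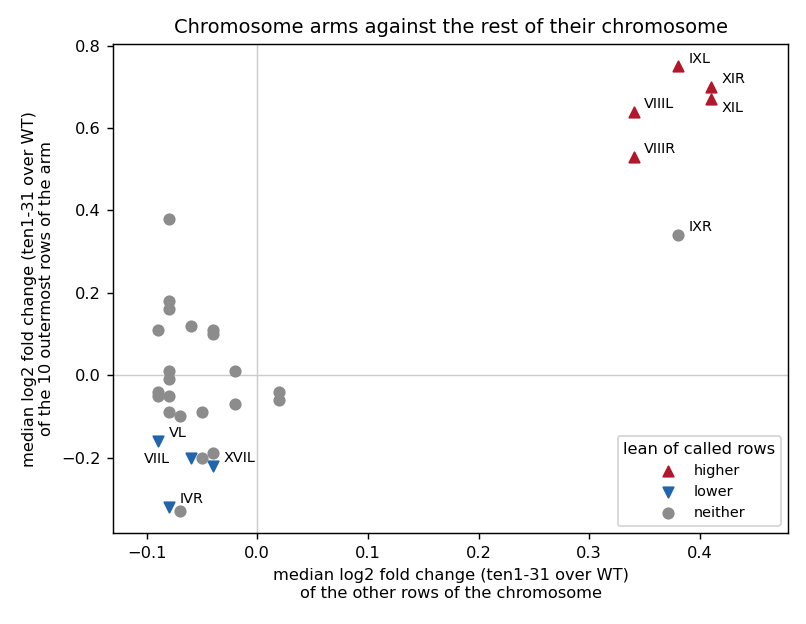
Median log2 fold change (ten1-31 over WT) of the 10 outermost rows of each arm, against that of the other rows of its chromosome; upward triangles are arms that lean higher, downward triangles arms that lean lower. The arms of VIII, IX and XI lie apart at the right, between 0.34 and 0.75 on the vertical axis, and the other 26 arms lie between -0.33 and 0.38.

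The 4 arms that leaned lower were IVR, VL, VIIL and XVIL, and their chromosomes did not stand apart, with medians of -0.08, -0.09, -0.06 and -0.04 in the other rows. XVIL had 5 rows lower and 0 higher, IVR 6 and 2, and VL and VIIL 5 and 1 each. XVIL leaned lower in each of the 6 fits that left out a single library, while VL did so in none of them. VIIL kept its lean without WT replicate 1 only, and IVR without WT replicate 1 or ten1-31 replicate 3 only. With each chromosome centred, XVIL was the only one of the 4 that still leaned lower, and with the replicate number as a block, VIIL and XVIL did. With only the 5 outermost rows per arm, VIIL leaned lower and XVIL did not. The outermost row of IVR, YDR541C, had 27.9, 20.1 and 27.9 CPM in ten1-31 and 42.6, 41.7 and 40.9 CPM in WT, and fell by 0.72 on the log2 scale (edgeR, adjusted p = 0.00256). That of VL, RMD6, was near the threshold at -0.31 ± 0.11 (edgeR, ± SE, adjusted p = 0.0480).

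The left end of chromosome VII carried a run of falls. Its outermost row, COS12, a member of a family of membrane proteins, had 1.41, 2.51 and 7.55 CPM in ten1-31 replicates 1, 2 and 3, against 10.1, 15.4 and 11.5 CPM in WT. The libraries did not overlap, but ten1-31 replicate 3 came near WT, and the log2 fold change of -1.64 ± 0.48 (edgeR, ± SE, adjusted p = 0.0230) lost its call without WT replicate 2, WT replicate 3 or ten1-31 replicate 2 (edgeR, adjusted p = 0.0509, 0.0700 and 0.0732). The next rows inward were steadier. MNT2 (chromosome VII, 12481 to 14157), a mannosyltransferase gene, had 41.8, 43.0 and 46.2 CPM in ten1-31 and 94.8, 95.4 and 97.6 CPM in WT. ADH4 (15159 to 16307), an alcohol dehydrogenase gene regulated by zinc, had 43.0, 49.0 and 49.5 CPM in ten1-31 and 110, 105 and 108 CPM in WT. ZRT1 (20978 to 22108), the high-affinity zinc transporter gene, had 26.2, 22.8 and 25.1 CPM in ten1-31 and 49.6, 49.1 and 46.4 CPM in WT. All 3 were tight within each genotype and fell by 1.13, 1.19 and 0.97 on the log2 scale (edgeR, adjusted p = 4.43e-05, 5.15e-05 and 0.000108). ZPS1 (XVL), another gene regulated by zinc, did not pass, with a log2 fold change of 0.34 ± 0.13 (edgeR, ± SE, adjusted p = 0.0549). ZRT1 and ZPS1 were named after their values were seen. No list of zinc-regulated genes was examined, so these genes do not show how such genes moved as a set.

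On the left end of chromosome XVI, SAM3 and SAM4 fell side by side. SAM3, the S-adenosylmethionine permease gene and the outermost row, had 94.8, 92.8 and 99.1 CPM in ten1-31 and 160, 148 and 146 CPM in WT, with a log2 fold change of -0.66 ± 0.07 (edgeR, ± SE, adjusted p = 0.000288). SAM4, which encodes a homocysteine methyltransferase that uses S-adenosylmethionine, changed by -0.59 ± 0.08 (edgeR, ± SE, adjusted p = 0.00103). Further in on the same arm, DIP5, the permease gene for acidic amino acids (41043 to 42869), had 112, 126 and 140 CPM in ten1-31 and 325, 292 and 273 CPM in WT. Its log2 fold change was -1.24 ± 0.10 (edgeR, ± SE, adjusted p = 0.000118). Neighbouring outermost rows that were both called, 92 pairs in all, had the same direction in 67 pairs (72.8%), against 66.7% of 1244 such pairs further in. Both figures include chromosomes VIII, IX and XI, where 40 of 60 outermost rows were higher and 6 lower. The pairs were not counted without these chromosomes or after centring.

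The largest rises among rows with at least 10 CPM were those of CRG1 and PCK1. CRG1 (VIIIR, rank 3; chromosome VIII, 519437 to 520312), a methyltransferase gene known for resistance to cantharidin, had 173, 186 and 115 CPM in ten1-31 replicates 1, 2 and 3 and 18.3, 22.9 and 19.5 CPM in WT. The groups lay far apart, and replicate 3 was the lowest of the ten1-31 libraries. The log2 fold change was 2.96 ± 0.19 (edgeR, ± SE, adjusted p = 4.49e-05), and 2.61 ± 0.12 with the chromosome centred. Its inner neighbour BAT1 (517532 to 518713), the mitochondrial branched-chain aminotransferase gene, went the other way. BAT1 had 629, 536 and 392 CPM in ten1-31 and 1032, 1080 and 1028 CPM in WT, with a log2 fold change of -1.01 ± 0.16 (edgeR, ± SE, adjusted p = 0.00145), and -1.37 ± 0.07 with the chromosome centred.

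PCK1 (XIR, rank 6; chromosome XI, 631152 to 632801), which encodes phosphoenolpyruvate carboxykinase of gluconeogenesis, had 102, 50.4 and 141 CPM in ten1-31 and 9.35, 11.5 and 21.5 CPM in WT. It was uneven within both genotypes, yet the lowest ten1-31 library was above the highest WT library. The log2 fold change was 2.79 ± 0.43 (edgeR, ± SE, adjusted p = 0.00137), and 2.37 ± 0.41 with the chromosome centred. POT1 (IXL, rank 4), a thiolase gene of fatty acid breakdown in peroxisomes, was below 10 CPM on average and lies outside the rule for named genes. It had 6.88, 6.31 and 10.6 CPM in ten1-31 and 0.876, 1.48 and 1.45 CPM in WT, a log2 fold change of 2.66 ± 0.30 (edgeR, ± SE, adjusted p = 0.000411). With the chromosome centred, POT1 was at 2.25 ± 0.25.

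Several rises were on chromosomes that did not stand apart. YDL241W (IVL, rank 1; chromosome IV, 20635 to 21006), which has no gene name in RefSeq, had 33.3, 32.3 and 28.3 CPM in ten1-31 and 8.98, 9.89 and 7.79 CPM in WT, a log2 fold change of 1.82 ± 0.12 (edgeR, ± SE, adjusted p = 4.49e-05). The row inward from it, LRG1, had a log2 fold change of -0.14 ± 0.08 (edgeR, ± SE, adjusted p = 0.195). YML131W (XIIIL, rank 1; chromosome XIII, 10198 to 11295) had 41.6, 38.3 and 38.6 CPM in ten1-31 and 7.81, 16.1 and 13.8 CPM in WT, a log2 fold change of 1.66 ± 0.22 (edgeR, ± SE, adjusted p = 0.000716). KIN3 (IR, rank 5), a protein kinase gene related to NIMA, had 101, 94.7 and 91.3 CPM in ten1-31 and 35.0, 40.4 and 37.9 CPM in WT. Both genotypes were tight, and the log2 fold change was 1.34 ± 0.08 (edgeR, ± SE, adjusted p = 4.05e-05). On the same arm SWH1, an oxysterol-binding protein gene and the outermost row, rose by 1.11 on the log2 scale, and YAT1, a carnitine acetyltransferase gene, by 1.23 (edgeR, adjusted p = 0.000157 and 0.00159). YNR065C (XIVR, rank 7) had 258, 305 and 272 CPM in ten1-31 and 108, 114 and 110 CPM in WT, a log2 fold change of 1.33 ± 0.08 (edgeR, ± SE, adjusted p = 3.97e-05). HPF1 (XVL, rank 5), a cell wall mannoprotein gene, changed by 1.13 ± 0.16 (edgeR, ± SE, adjusted p = 0.00114).

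Of the 12 largest rises with at least 10 CPM, others lay on chromosomes IX, VIII and XI. YPS6 (IXR, rank 2), which encodes a protease of the yapsin family, had 65.3, 68.7 and 85.5 CPM in ten1-31 and 19.4, 27.8 and 18.9 CPM in WT. VMR1 (VIIIL, rank 7), a vacuolar ABC transporter gene, had 208, 195 and 154 CPM in ten1-31 and 75.5, 79.5 and 72.9 CPM in WT. URA1 (XIL, rank 7), the dihydroorotate dehydrogenase gene of pyrimidine synthesis, had 349, 427 and 485 CPM in ten1-31 and 205, 153 and 176 CPM in WT. Their log2 fold changes were 1.74, 1.29 and 1.24, and 1.34, 0.95 and 0.82 with the chromosome centred, all of them called in both fits (edgeR, adjusted p of at most 0.00176). At the ends of VIIIL and XIL, DFP4 had 22.8, 21.4 and 16.4 CPM in ten1-31 and 6.79, 11.4 and 10.3 CPM in WT, and YKL222C had 50.6, 55.1 and 59.2 CPM in ten1-31 and 36.0, 35.5 and 35.5 CPM in WT. Both lay apart by genotype, with log2 fold changes of 1.09 and 0.62 (edgeR, adjusted p = 0.00347 and 0.000661), and of 0.75 and 0.20 with the chromosome centred.

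**Figure D5:**
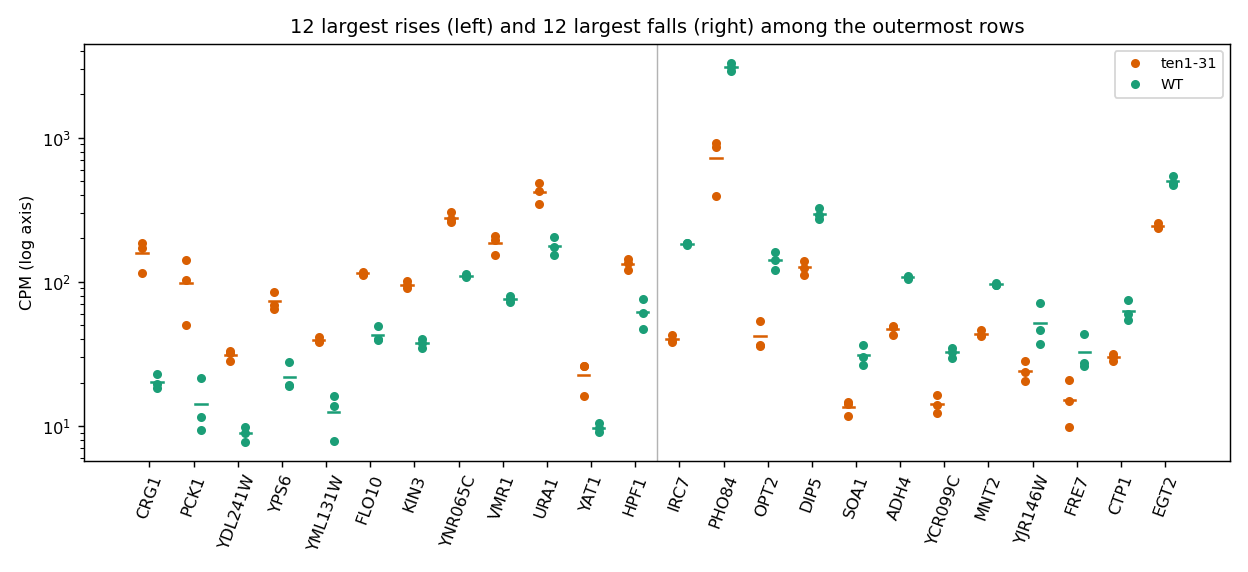
CPM of 12 rises and 12 falls, those of greatest size among the outermost rows with at least 10 CPM, on a log axis; orange points at the left of each gene are the ten1-31 libraries, green points the WT libraries, and bars the means of 3. The points of the genotypes do not overlap for any of the 24 genes, which the choice of these genes required.

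The largest falls among rows with at least 10 CPM were those of IRC7 and PHO84. IRC7 (VIR, rank 1; chromosome VI, 264204 to 265226), a beta-lyase gene that acts on cysteine and related thiols, had 42.6, 39.4 and 38.4 CPM in ten1-31 and 185, 182 and 186 CPM in WT. The libraries within each genotype were close, with a log2 fold change of -2.20 ± 0.07 (edgeR, ± SE, adjusted p = 5.11e-06). The row inward from it, RPN12, had a log2 fold change of 0.12 ± 0.06 (edgeR, ± SE, adjusted p = 0.138). PHO84 (XIIIL, rank 9; chromosome XIII, 24037 to 25800), the high-affinity phosphate transporter gene, had 917, 860 and 396 CPM in ten1-31 and 3301, 2888 and 3097 CPM in WT. It was the outermost row with the most counts, and its log2 fold change was -2.10 ± 0.29 (edgeR, ± SE, adjusted p = 0.000851).

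The other outermost row on the phosphate list, PHO89, a sodium-phosphate cotransporter gene (IIR, rank 3), had 15.9, 15.4 and 11.8 CPM in ten1-31 and 5.26, 7.46 and 7.26 CPM in WT, a log2 fold change of 1.11 ± 0.18 (edgeR, ± SE, adjusted p = 0.00175). GIT1 (IIIR, rank 2), the permease gene for glycerophosphoinositol, was at 1.88, 1.39 and 2.71 CPM in ten1-31 and 8.98, 11.3 and 7.87 CPM in WT, a log2 fold change of -2.20 ± 0.25 (edgeR, ± SE, adjusted p = 0.000416). GIT1 is not on the list and was named after its values were seen. Of the 13 phosphate genes tested elsewhere in the genome, 1 was called higher and 9 lower, beside 24.3% and 26.2% of all rows. The 1 called higher was PHO3, which is also on a list of thiamine and vitamin B6 genes. Among the 13, the transporter genes PHO87 and PHO90 were at 0.06 and -0.30 (edgeR, adjusted p = 0.465 and 0.0217).

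OPT2 (XVIR, rank 5), an oligopeptide transporter gene, had 36.0, 36.5 and 53.7 CPM in ten1-31 and 120, 162 and 141 CPM in WT, a log2 fold change of -1.74 ± 0.18 (edgeR, ± SE, adjusted p = 0.000268). SOA1 (IXL, rank 1), an anion transporter gene linked to sulfonate uptake, fell on an arm where 8 of the other 9 rows rose. It had 14.1, 11.8 and 14.7 CPM in ten1-31 and 26.4, 36.7 and 30.3 CPM in WT, a log2 fold change of -1.19 ± 0.14 (edgeR, ± SE, adjusted p = 0.000531), and -1.59 ± 0.14 with the chromosome centred. Other falls among the 12 largest, from -1.19 to -1.03, were YCR099C (IIIR), YJR146W (XR), FRE7 (XVL), the mitochondrial citrate transporter gene CTP1 (IIR) and EGT2 (XIVL), a gene of cell separation. All passed in edgeR, with an adjusted p of at most 0.0163.

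By family, the 3 adhesin genes with a row were all called higher, beside 24.3% of all rows tested. FLO5 (VIIIR, rank 1) had 98.8, 84.4 and 59.2 CPM in ten1-31 and 39.2, 37.9 and 36.0 CPM in WT. FLO10 (XIR, rank 1) had 112, 118 and 114 CPM in ten1-31 and 40.4, 49.6 and 39.3 CPM in WT. The genotypes did not overlap in either gene. Their log2 fold changes were 1.10 ± 0.17 and 1.41 ± 0.10 (edgeR, ± SE, adjusted p = 0.00157 and 6.09e-05), and 0.74 and 0.99 with the chromosome centred. FLO11, the third adhesin gene with a row and not among the outermost, was at 0.92 ± 0.12 (edgeR, ± SE, adjusted p = 0.000661). All 3 lie on chromosomes VIII, IX and XI, where 66.7% of the outermost rows and 56.7% of the other rows were called higher. For FLO11, on chromosome IX, no centred value is given. The other rows of that chromosome had a median log2 fold change of 0.38. FLO5 has near-identical copies elsewhere, so the division of reads between them is uncertain.

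Of the 8 sulfonate and methionine genes that were outermost rows, 4 were higher and 3 lower, with a median log2 fold change of 0.47. Over all rows tested, 24.3% were higher and 26.2% lower. Of the 4 listed genes tested elsewhere in the genome, 0 were higher and 2 lower, MUP1 and STR3. The whole list had a median of -0.12. SOA1, the sulfonate-linked gene in the outermost row of IXL, is not on the list and fell, as given above. SEO1, a putative permease gene at the end of IL, and JLP1, a sulfonate dioxygenase gene on XIIL, changed by 1.49 ± 0.14 and 1.38 ± 0.15 (edgeR, ± SE, adjusted p = 0.000176 and 0.000336). MHT1, a methyltransferase gene that uses S-methylmethionine, rose by 0.75 on XIIL and the methionine permease gene MUP3 by 0.71 on VIIIL (edgeR, adjusted p = 0.000579 and 0.0201). With the chromosome centred, MUP3 was at 0.35 (edgeR, adjusted p = 0.0449). Among the outermost rows of the list, the other faller beside SAM3 and SAM4 was BDS1, an alkyl sulfatase gene, with -0.83 ± 0.12 (edgeR, ± SE, adjusted p = 0.00112).

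Of the 11 iron and siderophore genes among the outermost rows, 4 were higher and 2 lower, with a median log2 fold change of 0.20, beside 24.3% higher and 26.2% lower over all rows tested. Of the 4 listed genes tested elsewhere in the genome, 0 were higher and 2 lower, FRE1 and the copper transporter gene CTR1. FET3 and FTR1 did not pass, at -0.16 and -0.29 (edgeR, adjusted p = 0.683 and 0.178). The median of the whole list was 0.05. Among the outermost rows the changes were as follows. The siderophore transporter genes ARN1 and SIT1, the ferric reductase gene FRE2 and the cell wall siderophore gene FIT2 rose by 0.65, 0.55, 0.79 and 0.73 on the log2 scale (edgeR, adjusted p of at most 0.00480). With the chromosome centred, ARN1 and FRE2 were at 0.30 and 0.38. The low-affinity iron transporter gene FET4 and the reductase gene FRE7 fell by 0.96 and 1.08 (edgeR, adjusted p = 0.000312 and 0.0163). On the right end of chromosome XV, where FRE5, FIT3, FIT2 and FRE3 stand side by side, only FIT2 passed, and the other 3 were at 0.65, -0.14 and 0.20.

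Of 6 maltose, isomaltose and sucrose genes, all of them outermost rows, 2 were higher: SUC2, the invertase gene, by 1.02 and MAL11, a maltose permease gene, by 0.49 (edgeR, adjusted p = 0.00624 and 0.0346). None was lower, and the share over all rows tested was 24.3% higher and 26.2% lower. SUC2 had 77.6, 95.1 and 104 CPM in ten1-31 and 35.0, 62.8 and 39.0 CPM in WT, and its log2 fold change was 0.62 with the chromosome centred (edgeR, adjusted p = 0.0373). MAL33, a maltose activator gene, had 40.5, 48.1 and 48.8 CPM in ten1-31 and 23.0, 67.7 and 39.3 CPM in WT, and did not pass. In both genes WT replicate 2 was the highest WT library. The call of MAL11 was lost in 5 of the 6 fits that left out a single library. The hexose transporter gene HXT8 was near 1 CPM and did not pass (edgeR, adjusted p = 0.356).

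Smaller families had few rows, and their counts stand beside 24.3% higher and 26.2% lower over all rows tested. Of 3 COS genes, COS12 was called, lower, though not in every fit that left out a library. The arsenic resistance genes of XVIR did not move as a cluster: ARR1, the regulator, changed by -0.75 ± 0.09 (edgeR, ± SE, adjusted p = 0.000523), while ARR2 and ARR3 were at 0.24 and 0.04. Of the aryl-alcohol dehydrogenase genes, AAD14 was called at -0.38 and AAD6 was at -0.02. HSP31, a methylglyoxalase and chaperone gene (IVR), was at 0.95 ± 0.19 (edgeR, ± SE, adjusted p = 0.00443), DAN4, a cell wall mannoprotein gene (XR), at 0.89 ± 0.10 (edgeR, ± SE, adjusted p = 0.000327), and BIO2, the biotin synthase gene (VIIR), at 0.59 ± 0.09 (edgeR, ± SE, adjusted p = 0.00141). Of 3 allantoin genes among the outermost rows, DAL3 was called, at -0.53. With the chromosome centred, DAL3 and DAL7, both on IXR, were at -0.92 and -0.50 (edgeR, adjusted p = 0.00119 and 0.00947). The remaining 1, DAL5 on XR, was at 0.18 with centring and did not pass. Of the 7 allantoin genes tested elsewhere in the genome, 3 were higher and 1 lower, beside 24.3% and 26.2% of all rows. No outermost row was on the thiamine and vitamin B6 list, of which 1 of 12 genes was higher and 3 were lower, against 24.3% and 26.2% of all rows. The 1 higher was PHO3, which was counted with the phosphate genes as well.

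Genes of silencing and telomere binding were listed as the regulators of these regions. Of 28 tested, 10 were higher and 6 lower in ten1-31, against the background of 24.3% and 26.2%, with a median log2 fold change of 0.05. SIR3 changed by 0.43 ± 0.08 and SIR4 by 0.25 ± 0.09, while SIR2 changed by -0.26 ± 0.09 (edgeR, ± SE, adjusted p = 0.00358, 0.0415 and 0.0463). Among them SIR1 and RIF2 are outermost rows. SIR1 (XIR, rank 2) was at 39.2 ± 1.84 CPM in ten1-31 and 32.6 ± 2.52 CPM in WT (SD, n = 3 each), and its log2 fold change was 0.27 (edgeR, adjusted p = 0.0306), but -0.15 with the chromosome centred (adjusted p = 0.140). RIF2 (XIIR, rank 6) was at 19.2 ± 2.26 CPM in ten1-31 and 13.7 ± 1.66 CPM in WT (SD, n = 3 each), and its log2 fold change was 0.49 ± 0.13 (edgeR, ± SE, adjusted p = 0.0153).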

How the data were processed

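The authors deposited one table of raw read counts per gene row with a column for each of 6 RNA-seq libraries, rRNA-depleted and made with a directional kit per the labels' protocols. Per the submitters' processing notes the tools included FastQC, cutadapt, Trimmomatic, TopHat2, Bowtie2 and featureCounts and the builds R64 and sacCer3. How strand was set, which annotation was counted and whether rows were filtered is not given in the sources used here, so counts of overlapping, antisense or near-identical genes are uncertain. There were 0 rows with a count of 0.

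Rows with a systematic name were ranked by number within each arm, after leaving out 4 names that stood on 2 rows each (one, YKR103W, lies at the end of XIR). Suffixed names took the number of their stem. Of the 320 rows, 319 matched RefSeq (R64), which gave symbols, lengths and coordinates (1-based).

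Counts were tested in edgeR 4.0.16 by quasi-likelihood (R 4.3.3, TMM, filterByExpr with minimum count 10 and minimum total 15, genotype as the only term) over all 5133 rows that passed, and tested on simulated data. The SE is the size of the log2 fold change divided by the square root of F. Genes named were the 12 largest rises and falls among rows called, with at least 10 CPM and no overlap between genotypes, the outermost row of each leaning arm, and called family members. POT1, GIT1, ZRT1, BAT1, SWH1, PGU1, LRG1, RPN12, ZPS1, the right arm of I, XIIIL and family members given as not passing were named after their values were seen. The rows, lists and tests were chosen with earlier results of these data known. No sequences were available, so none are printed.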

Additional observations from a re-analysis of the deposited data

How the results depend on the processing

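Counts of outermost rows called (98 higher, 84 lower) stayed within 1.5 times under other scalings, row filters, DESeq2 1.42.0, limma-voom and an adjusted p-value of 0.01. With single libraries left out they ranged from 71 to 103 higher and from 61 to 101 lower. Of called rows, 53.8% were higher, 62.6% with library size as the only scaling and 48.9% with upper quartile scaling. The median log2 fold change of 0.05 became 0.13 with library size only and 0.00 with upper quartile scaling, which shift all rows by 0.08 and -0.05, and ran from 0.04 to 0.09 when one library was left out. It was 0.00 without chromosomes VIII and IX and -0.02 without VIII, IX and XI, where 58 rows were higher. With 5 rows per arm, 50 were higher and 43 lower, with 20 rows 182 and 170, and within 30 kb of the outermost RefSeq gene 56 and 54; these sets differ in size by construction.

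The number of arms leaning higher, 5 here, was 2 with each chromosome centred, 3 within 30 kb, and 4 to 5 when one library was left out. It was 2 without VIII and IX and 0 without VIII, IX and XI. With 5 rows per arm, VIIIL, IXR, XIR and XIIIL leaned higher. With 20 rows XIIIL did so too, beside both arms of VIII, IX and XI. The number of arms leaning lower, 4 here, was 1 with centring, library size only or the 0.01 threshold, and 2 with at least 10 CPM in 3 libraries. It was 2 with 5 rows per arm or the 30 kb limit, 7 with 20 rows, and 1 to 4 when one library was left out. The arms were not always the same. With 5 rows per arm or the 30 kb limit they were IIIR and VIIL, without XVIL. With 20 rows IVR was not among them. IIIR leaned lower without WT replicate 3, and XR without WT replicate 1. VIIIR lost its lean without WT replicate 2, WT replicate 3, ten1-31 replicate 1 or ten1-31 replicate 2. The share of counts, 0.111 percentage points higher in ten1-31, was -0.0876 with 20 rows per arm, and from 0.0110 to 0.240 higher when one library was left out.

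Of 53 genes named by rule, 44 kept their call in all refits; COS12, RMD6, MAL11, RIF2, DAL3, AAD14, MUP3, SIR1 and FRE7 did not, the last only at 0.01. SIR1 reversed with centring (-0.15). Centring, the 30 kb limit, the set without VIII, IX and XI and the set without repeated families were chosen after seeing the data; leaving out rows with a close protein copy was not run, as no protein sequences were used.

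Replicate numbers are not said to pair the libraries; same-numbered deviations correlated at 0.202, 0.209 and 0.0873. With replicate block, 107 outermost rows were higher and 83 lower, and 2 arms leaned lower. Precision is set by 3 libraries per genotype; 5 of the 320 rows had a count of 10 or less in some library.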
